A study of Mus musculus with 9 samples.

Results

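The comparison described here sets aortas of mice given BAPN and TPA against aortas of untreated mice, and asks which genes still stood apart from the normal vessel, or stood apart only when TPA was added. It uses 4 of the 9 libraries of the study, chosen by their labelled treatment: 2 from mice fed BAPN at 1 g/kg/day and injected intraperitoneally with TPA at 50 ng/g/day from day 1 (BAPN + TPA), and 2 from mice given distilled water (normal). The 2 libraries of mice fed BAPN alone at the same dose are given between them, because the BAPN + TPA mice differ from normal by both agents. All mice were C57BL/6J, were killed on day 28 and are described in the protocol as 12 per treatment. The remaining 3 libraries, from mice given BAPN with T-5224 or with coQ10, enter only the estimate of the spread. Neither the age and sex of the mice nor any pooling of aortas is stated in the sources used here. Submitters call the sampled cells vascular cells, and the files hold FPKM per gene, which is read density per gene length.

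BAPN (β-aminopropionitrile) blocks the lysyl oxidases, the enzymes that cross-link elastin and collagen, and a wall built without these cross-links is prone to dissection. TPA is a phorbol ester that activates protein kinase C and, through it, the transcription factor AP-1. AP-1 is a dimer of Fos-family and Jun-family proteins that binds the element TGANTCA and drives early response, cytokine and protease genes in many cells. The normal media is made of contractile smooth muscle cells, whose actin, myosin and calponin genes depend on serum response factor and myocardin acting at CArG boxes.

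Few genes passed the test against normal aorta with all 9 libraries in the fit. Of 12997 genes tested, 5 rose (0.0385% of the genes tested) and 1 fell (0.00769%) in BAPN + TPA relative to normal, by limma on log2(FPKM + 1) with a Benjamini-Hochberg adjusted p under 0.05. Those that rose were Krt13, Mt4, Krtdap, Hbq1a and Cxcl1, and the one that fell was Tmem254c. At an unadjusted p under 0.05 there were 1507 genes. Relative to BAPN alone, 3 genes rose (0.0231%), again Krt13, Mt4 and Krtdap, and 2 fell (0.0154%), Il6 and Csf3. This second contrast is also the test of whether a gene's difference from normal was unlike that under BAPN alone, since both differences use the same normal libraries. The calls depended on single libraries. Without either BAPN + TPA library, either BAPN library or normal replicate 2, no gene passed against normal, although 371 to 1137 genes had an unadjusted p under 0.05. Without normal replicate 1, 2 genes rose against normal and 0 fell, and without either library of the BAPN + T-5224 group 24 rose and 1 fell. No gene passed against normal when only the 4 libraries compared were used, with 3122 genes at an unadjusted p under 0.05. Against BAPN the number of calls depended even more on the libraries fitted. With only the 4 libraries of that contrast 702 genes rose and 270 fell, while no gene passed without either BAPN + TPA library or either BAPN library, with 409 to 715 genes at an unadjusted p under 0.05. Against BAPN, 7 or 8 genes rose and 1 fell without 1 normal library, and 1 or 2 rose and 0 fell without 1 BAPN + T-5224 library.

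**Figure D1:**
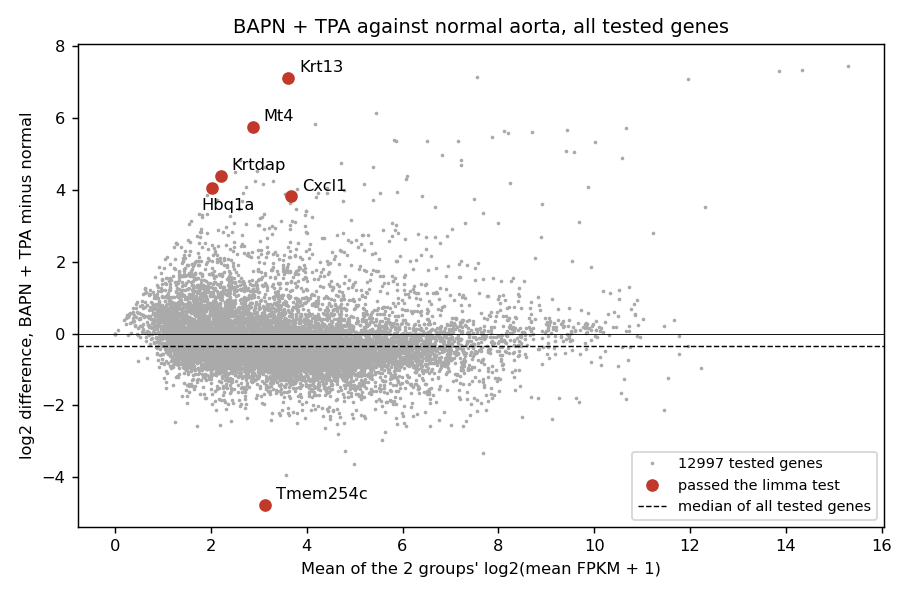
Each point is 1 of the 12997 tested genes, with the mean of the 2 groups' log2(mean FPKM + 1) on the x axis and the log2 difference, BAPN + TPA minus normal, on the y axis. The 6 genes that passed the limma test are drawn large and named, and the dashed line at -0.35 is the median of all tested genes.

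The libraries differed in the tissues they carried. Haemoglobin made up 69.4% and 69.2% of summed FPKM in BAPN + TPA and 68.9% and 74.1% in BAPN, against 1.25% and 1.03% in normal. Markers of airway and alveolar epithelium averaged 6.41 and 5.73 (log2(FPKM + 1), 15 genes) in BAPN + TPA, 1.18 and 0.94 in BAPN, and 8.01 and 1.36 in the 2 normal libraries. Of the 15, both BAPN + TPA libraries lay above both normal libraries for 1, Scgb3a1, and below them for 2, the alveolar genes Sftpc and Sftpb. Normal replicate 1 was also the higher normal library for cardiac muscle markers, at 9.31 against 2.02 in replicate 2. It listed none of 4 Y-linked genes that all other libraries listed. Cardiac markers were also high in BAPN + TPA, at 7.79 and 5.92, against 2.17 and 2.56 in BAPN. For skeletal muscle, both BAPN + TPA libraries lay above both normal libraries for 14 of 15 genes and below them for 0. Of these 15 genes 0 passed against normal and 2 had an unadjusted p under 0.05. Across genes, BAPN + TPA replicates correlated at 0.967 and normal replicates at 0.852, while normal replicate 1 correlated at 0.916 and 0.917 with the BAPN + TPA libraries. Defining markers of the labelled tissue were present, with Acta2 and Myh11 at 246 and 50.1 FPKM or above in all 6 libraries. The deposited FPKM placed the median of all tested genes at -0.35 (log2) in BAPN + TPA relative to normal, so both BAPN + TPA libraries lay below both normal libraries for 51.1% of genes and above them for 9.03%. After median-of-ratios scaling the median was -0.01 and these shares were 23.2% and 22.4%. The counts of list members given for the other gene groups are to be read against these shares.

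The 3 genes that rose in both contrasts belong to stratified squamous epithelium, the lining of skin, mouth and oesophagus. Krt13, a keratin of the upper layers of internal squamous linings (chr11:100117327-100121566, mm10), had 92.0 and 207 FPKM in BAPN + TPA and 0.20 and 0.26 FPKM in BAPN, and was listed at 0 in both normal libraries. Mt4, the metallothionein of stratified epithelia (chr8:94137204-94139031), had 49.6 and 56.6 FPKM in BAPN + TPA and was listed at 0 in the BAPN and normal libraries. Krtdap, made by differentiating keratinocytes (chr7:30787905-30791089), had 16.3 and 24.6 FPKM in BAPN + TPA and was likewise listed at 0 in all 4 others. The BAPN + TPA libraries therefore stood apart from every BAPN and normal library for each of the 3 genes. Among these 6 libraries, only the BAPN + TPA ones brought the 3 genes to the minimum mean of 1 FPKM. Their standing apart is therefore no support beyond the test itself. A group at 0 in both libraries also adds no spread to the SE of these genes. On the log2(FPKM + 1) scale the differences from normal were 7.12 ± 0.44 for Krt13 (SE, limma adjusted p = 0.00717), 5.76 ± 0.34 for Mt4 (limma adjusted p = 0.00717) and 4.39 ± 0.40 for Krtdap (limma adjusted p = 0.032). Against BAPN the limma adjusted p was 0.00953, 0.00953 and 0.0347 for the same 3 genes. With each library left out in turn, the difference of Krt13 from normal ranged from 6.54 to 7.70 and its limma adjusted p from 0.00658 to 0.317. The range for Mt4 was 5.66 to 5.85, with limma adjusted p from 0.00383 to 0.421, and that for Krtdap was 4.11 to 4.68, with limma adjusted p from 0.0222 to 0.697. In these 3 ranges the call was lost without either BAPN + TPA library, either BAPN library or normal replicate 2, and for Krt13 and Krtdap also without normal replicate 1.

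The promoters of these genes are shown because TPA is given as an AP-1 activator. They are the 250 bases before the RefSeq start (GRCm38.p6), with matches to the AP-1 element TGANTCA in capitals: chr11:100121567-100121816 on the minus strand for Krt13, chr7:30787655-30787904 on the plus strand for Krtdap and chr8:94136954-94137203 on the plus strand for Mt4.
Krt13: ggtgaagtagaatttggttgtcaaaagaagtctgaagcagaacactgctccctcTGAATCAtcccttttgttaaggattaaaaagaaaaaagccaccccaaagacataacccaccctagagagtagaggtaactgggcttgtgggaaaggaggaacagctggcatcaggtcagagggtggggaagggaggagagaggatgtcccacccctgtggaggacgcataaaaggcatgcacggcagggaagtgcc
Krtdap: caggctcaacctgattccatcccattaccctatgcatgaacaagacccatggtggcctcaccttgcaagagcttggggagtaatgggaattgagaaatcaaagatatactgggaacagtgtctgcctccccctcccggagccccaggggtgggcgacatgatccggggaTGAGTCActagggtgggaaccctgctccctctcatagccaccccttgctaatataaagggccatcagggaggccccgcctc
Mt4: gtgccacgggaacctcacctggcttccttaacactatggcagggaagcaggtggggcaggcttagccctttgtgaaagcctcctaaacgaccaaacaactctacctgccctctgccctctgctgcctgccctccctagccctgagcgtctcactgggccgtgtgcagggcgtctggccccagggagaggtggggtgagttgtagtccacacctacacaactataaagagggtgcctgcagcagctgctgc
Krt13 held 1 match that began 196 bases before the start, Krtdap held 1 that began 81 bases before it, and Mt4 held none. Of 9923 promoters of tested genes searched on both strands, 4.29% held this element, and a match is not evidence of binding.

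Other squamous genes were also listed in BAPN + TPA, many of them at low values. Of 19 genes on the squamous epithelium list 12 were tested, and 3 rose and 0 fell against normal. The other 7 averaged under 1 FPKM across the 9 libraries and were not tested, and 6 members were at 0 in both normal libraries, so that some of the tested members reached the minimum through the BAPN + TPA libraries. Over all 19, tested or not, both BAPN + TPA libraries lay above both normal libraries for 16, the 3 that passed included, and below them for 2, Dsp and Krt10, of which Krt10 overlapped normal after median-of-ratios scaling. Krt14, a keratin of the basal layer, had 19.8 and 54.8 FPKM in BAPN + TPA, 0 and 0.75 FPKM in BAPN, and 1.19 and 0 FPKM in normal (log2 difference from normal 4.53, limma adjusted p = 0.151). Lgals7, a galectin of stratified epithelia, had 72.7 and 197 FPKM in BAPN + TPA, 2.76 and 1.85 FPKM in BAPN, and 2.55 and 0.26 FPKM in normal (5.83, limma adjusted p = 0.171). These genes did not pass. Krt5, the partner of Krt14, had 80.1 and 187 FPKM in BAPN + TPA and 0.05 and 0.21 FPKM in BAPN, but 23.7 FPKM in normal replicate 1 and 0 in replicate 2. Krt15 had 77.9 and 96.5 FPKM in BAPN + TPA, 0 in BAPN, and 74.2 and 0.55 FPKM in the normal libraries. Keratins of basal epithelium were thus also present in normal replicate 1, the library with the highest mean of the airway and alveolar list among the 6. Krt13, Mt4 and Krtdap were listed at 0 there. The airway marker Scgb3a1, like Krt15, was high in BAPN + TPA and in normal replicate 1. It had 3008 and 2285 FPKM in BAPN + TPA, 6.79 and 6.18 FPKM in BAPN, and 1752 and 3.54 FPKM in normal. Scgb3a1 was the only 1 of 15 airway and alveolar genes above normal in both BAPN + TPA libraries, and 2, Sftpc and Sftpb, lay below. The part of neighbouring epithelium in these differences was not tested.

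**Figure D2:**
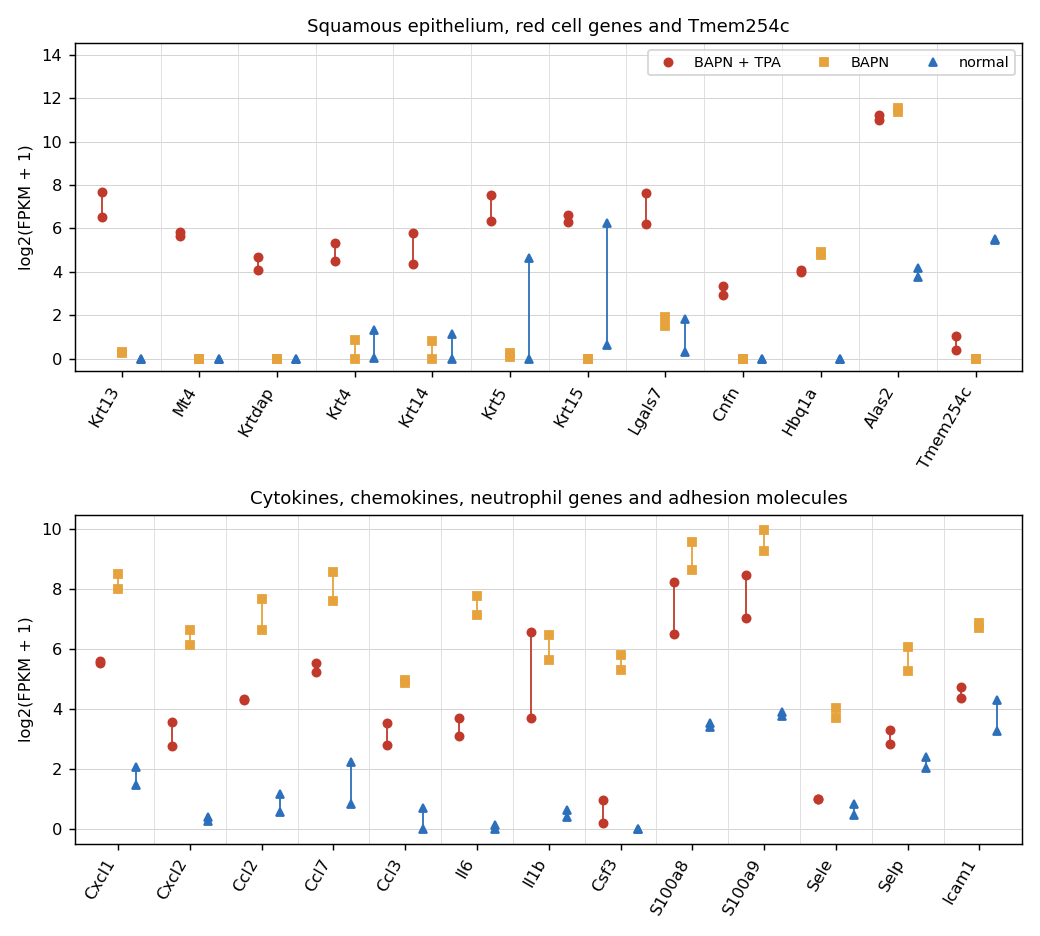
Values of single libraries in log2(FPKM + 1) for squamous, red cell and Tmem254c genes (top) and for cytokines, chemokines, neutrophil genes and adhesion molecules (bottom). Points are the 2 libraries of BAPN + TPA (circles), BAPN (squares) and normal (triangles), joined by a line. Krt13, Mt4 and Krtdap were at 16.3 FPKM or more in BAPN + TPA and at 0.26 FPKM or less elsewhere, while Il6 in BAPN + TPA lay between BAPN and normal.

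Blood genes were high in both treated groups. Hbq1a, a theta-globin gene (chr11:32300069-32300873), had 16.1 and 14.8 FPKM in BAPN + TPA and 29.6 and 26.4 FPKM in BAPN, and was listed at 0 in both normal libraries (4.04 ± 0.35, SE, limma adjusted p = 0.032). With each library left out in turn its limma adjusted p ranged from 0.00383 to 0.61, and it passed only without either BAPN + T-5224 library. All 10 red cell genes lay above normal in both BAPN + TPA libraries, and of the 9 that were tested 0 passed and 9 had an unadjusted p under 0.05. Alas2, which starts haem production in red cell precursors, had 2417 and 2029 FPKM in BAPN + TPA, 2629 and 2993 FPKM in BAPN, and 17.3 and 12.5 FPKM in normal (7.14, limma adjusted p = 0.151). Its difference from BAPN was -0.34 with a 95% interval of -2.50 to 1.82, which spans changes of several fold in either direction. In bulk RNA, fewer cells of a type and less RNA per cell cannot be told apart, and this holds for every cell type named here.

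White cell and platelet lists differed in how uniformly they lay above normal. Both BAPN + TPA libraries lay above both normal libraries for 9 of 9 T cell genes, 7 of 9 platelet genes and 8 of 12 neutrophil genes, tested or not, and below them for none of these. This was so for 6 of 12 macrophage genes, with 1, Mertk, below, and for 2 of 6 B cell genes, with 0 below. None of the tested members of these 5 lists passed limma, and 6 T cell, 2 platelet, 4 neutrophil, 1 macrophage and 0 B cell genes had an unadjusted p under 0.05. S100a9, a calcium-binding protein that neutrophils hold in bulk, had 358 and 129 FPKM in BAPN + TPA, 1010.4 and 616 FPKM in BAPN, and 14.0 and 12.4 FPKM in normal (3.93, limma adjusted p = 0.151). The T cell kinase Lck had 12.6 and 12.5 FPKM in BAPN + TPA, 4.49 and 40.7 FPKM in BAPN, and 1.36 and 0.30 FPKM in normal. The 2 BAPN + TPA libraries were close for Lck, whereas the BAPN libraries lay on either side of them.

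Most cytokine and chemokine genes lay above normal and below BAPN. Of 25 genes on the list 21 were tested, and 1 rose, Cxcl1. Over all 25, tested or not, both BAPN + TPA libraries lay above both normal libraries for 18 and below them for 1, Cxcl9. Relative to BAPN, 15 of the 25 lay below both BAPN libraries and 0 above, where 21.2% and 41.4% of all tested genes did so. Cxcl1, which attracts neutrophils (chr5:90891245-90893121), had 45.6 and 47.6 FPKM in BAPN + TPA, 365 and 255 FPKM in BAPN, and 3.14 and 1.77 FPKM in normal. Its difference from normal was 3.81 ± 0.35 (SE, limma adjusted p = 0.032), and that from BAPN was -2.68 (limma adjusted p = 0.132). With each library left out in turn the difference from normal ranged from 3.52 to 4.10 and its limma adjusted p from 0.0206 to 0.617, and it passed only without either BAPN + T-5224 library.

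Il6 and Csf3 fell with TPA relative to BAPN. Il6, the cytokine that drives the acute phase response (chr5:30013114-30019975), had 7.58 and 12.0 FPKM in BAPN + TPA, 215 and 140 FPKM in BAPN, and 0 and 0.10 FPKM in normal. It lay between both other groups, at -4.04 ± 0.35 from BAPN (SE, limma adjusted p = 0.0324) and 3.33 ± 0.35 from normal (limma adjusted p = 0.0606). The call against BAPN was lost without any 1 of the 8 libraries of replicated groups, with limma adjusted p from 0.0506 to 0.598. Against normal the limma adjusted p of Il6 was 0.0402 after median-of-ratios scaling, 0.0047 after rescaling to TPM and 0.0345 with an offset of 0.1. It was 0.0428 with haemoglobin left out of the sum, 0.0341 after quantile normalization and 0.0494 with no intensity trend. Il6 missed with only the 4 libraries compared (limma adjusted p = 0.193), no filter (0.106), a mean of at least 5 FPKM (0.0767) and the replicate block (0.214). With each library left out in turn its difference from normal ranged from 3.03 to 3.64. Csf3, which drives neutrophil production, had 0.13 and 0.94 FPKM in BAPN + TPA, 54.2 and 38.6 FPKM in BAPN, and 0 in normal (-4.98 ± 0.43 from BAPN, limma adjusted p = 0.0324). Its call was lost without either BAPN + TPA, BAPN or BAPN + T-5224 library, with limma adjusted p up to 0.73. The promoters of Cxcl1 and Il6 are shown for their matches to the NF-κB element GGGANTTTCC and to TGANTCA, both in capitals: chr5:90890995-90891244 and chr5:30012864-30013113, both on the plus strand.
Cxcl1: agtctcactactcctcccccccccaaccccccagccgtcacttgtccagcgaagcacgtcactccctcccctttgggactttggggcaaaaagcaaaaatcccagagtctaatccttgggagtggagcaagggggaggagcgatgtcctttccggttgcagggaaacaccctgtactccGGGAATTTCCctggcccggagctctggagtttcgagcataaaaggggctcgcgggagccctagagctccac
Il6: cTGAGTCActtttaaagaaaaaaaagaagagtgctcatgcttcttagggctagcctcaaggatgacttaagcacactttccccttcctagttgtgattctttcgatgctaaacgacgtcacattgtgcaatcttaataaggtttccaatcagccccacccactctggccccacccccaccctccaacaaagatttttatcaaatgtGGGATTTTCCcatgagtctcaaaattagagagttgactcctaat
In Cxcl1 the NF-κB element began 71 bases before the start, and in Il6 it began 44 bases and TGANTCA 249 bases before it. Of the 9923 promoters, 0.343% held the NF-κB element.

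Other inflammatory genes differed in how far they lay from normal. Ccl2, which attracts monocytes, had 18.5 and 19.3 FPKM in BAPN + TPA, 203 and 97.4 FPKM in BAPN, and 1.22 and 0.46 FPKM in normal (3.47 from normal, limma adjusted p = 0.119). Cxcl2 had 5.75 and 10.8 FPKM in BAPN + TPA, 98.5 and 68.8 FPKM in BAPN, and 0.30 and 0.20 FPKM in normal. Il1b had 93.0 and 12.1 FPKM in BAPN + TPA, 87.8 and 49.0 FPKM in BAPN, and 0.30 and 0.53 FPKM in normal, so its BAPN + TPA libraries spanned those of BAPN. A smaller distance was seen for Sele, the endothelial selectin that slows rolling leukocytes, with 1.00 and 0.99 FPKM in BAPN + TPA, 15.4 and 12.1 FPKM in BAPN, and 0.78 and 0.36 FPKM in normal. Its difference from normal was 0.36 with a 95% interval of -0.64 to 1.35, and that from BAPN was -2.88 (limma adjusted p = 0.195). Adamts4, an aggrecan-cleaving protease, had 0.92 and 2.18 FPKM in BAPN + TPA, 40.7 and 21.6 FPKM in BAPN, and 0.70 and 0.42 FPKM in normal. Icam1, which binds leukocyte integrins, had 25.5 and 19.6 FPKM in BAPN + TPA, 117 and 104 FPKM in BAPN, and 18.9 and 8.49 FPKM in normal. Both BAPN + TPA libraries of Sele, Adamts4 and Icam1 lay above both normal libraries, at log2 differences of 0.36, 0.67 and 0.77. None of these genes passed in either contrast, and Ccl2 passed against normal only after rescaling to TPM, after quantile normalization and with normal replicate 1 and BAPN + T-5224 replicate 2 both left out (limma adjusted p from 0.00503 to 0.905 over the alternatives).

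AP-1 genes were measured because TPA is given to activate this factor. Of the 12 subunits 0 passed against normal and 5 had an unadjusted p under 0.05, and both BAPN + TPA libraries lay above both normal libraries for 6 and below them for 1, Atf2. Their median difference was 0.62 against -0.35 for all tested genes, and -0.32 against -1.61 after rescaling to TPM. Fos, the founding member of the Fos family, had 475 and 231 FPKM in BAPN + TPA, 129 and 156 FPKM in BAPN, and 28.1 and 65.9 FPKM in normal (2.92 from normal, limma adjusted p = 0.342). Junb had 326 and 207 FPKM in BAPN + TPA, 282 and 265 FPKM in BAPN, and 49.6 and 40.3 FPKM in normal (2.51, limma adjusted p = 0.151). Jun had 186 and 126 FPKM in BAPN + TPA, 94.8 and 109 FPKM in BAPN, and 68.4 and 70.2 FPKM in normal. Fos and Jun were therefore highest with TPA, although their differences from BAPN did not pass, and Junb and Fosb overlapped between the BAPN + TPA and BAPN groups. Fosl1, encoding Fra-1, had 0.69 and 2.22 FPKM in BAPN + TPA, 21.4 and 6.05 FPKM in BAPN, and 0.13 and 1.18 FPKM in normal. Atf3, a stress-induced partner, had 79.4 and 48.0 FPKM in BAPN + TPA, 131 and 118 FPKM in BAPN, and 10.5 and 24.6 FPKM in normal. For Jund, Jdp2, Fosl2, Fosl1 and Batf3 the BAPN + TPA and normal libraries overlapped.

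Early response genes outside AP-1 showed the same mixture. Of 19 tested genes 0 passed and 9 had an unadjusted p under 0.05, and 12 lay above normal in both BAPN + TPA libraries and 1, Klf6, below. The median was 1.03 against -0.35 for all tested genes, and -0.29 against -1.61 after rescaling to TPM. Nr4a1, an orphan nuclear receptor induced within minutes of many stimuli, had 348 and 326 FPKM in BAPN + TPA, 214 and 215 FPKM in BAPN, and 72.2 and 121 FPKM in normal (1.84 from normal, limma adjusted p = 0.395). The zinc-finger gene Egr2 had 17.8 and 9.84 FPKM in BAPN + TPA, 4.62 and 4.79 FPKM in BAPN, and 2.25 and 1.98 FPKM in normal (2.20, limma adjusted p = 0.336). Dusp1, a phosphatase that turns off MAP kinases, had 376 and 317 FPKM in BAPN + TPA, 210 and 132 FPKM in BAPN, and 134 and 237 FPKM in normal. Egr1, Egr2, Nr4a1, Dusp1 and Klf2 were above both other groups in both BAPN + TPA libraries. Socs3, which feeds back on cytokine signalling, had 25.4 and 29.1 FPKM in BAPN + TPA, 186 and 86.3 FPKM in BAPN, and 8.25 and 6.27 FPKM in normal. Of the 31 AP-1 and early genes, 26 had a promoter sequence, and 0 of these held TGANTCA in the 250 bases. The share of all 9923 promoters was 4.29%. For Jdp2, Egr2, Nr4a1 and Socs3 the window lay inside the annotated gene, so the bases before its outermost start were not searched.

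**Figure D3:**
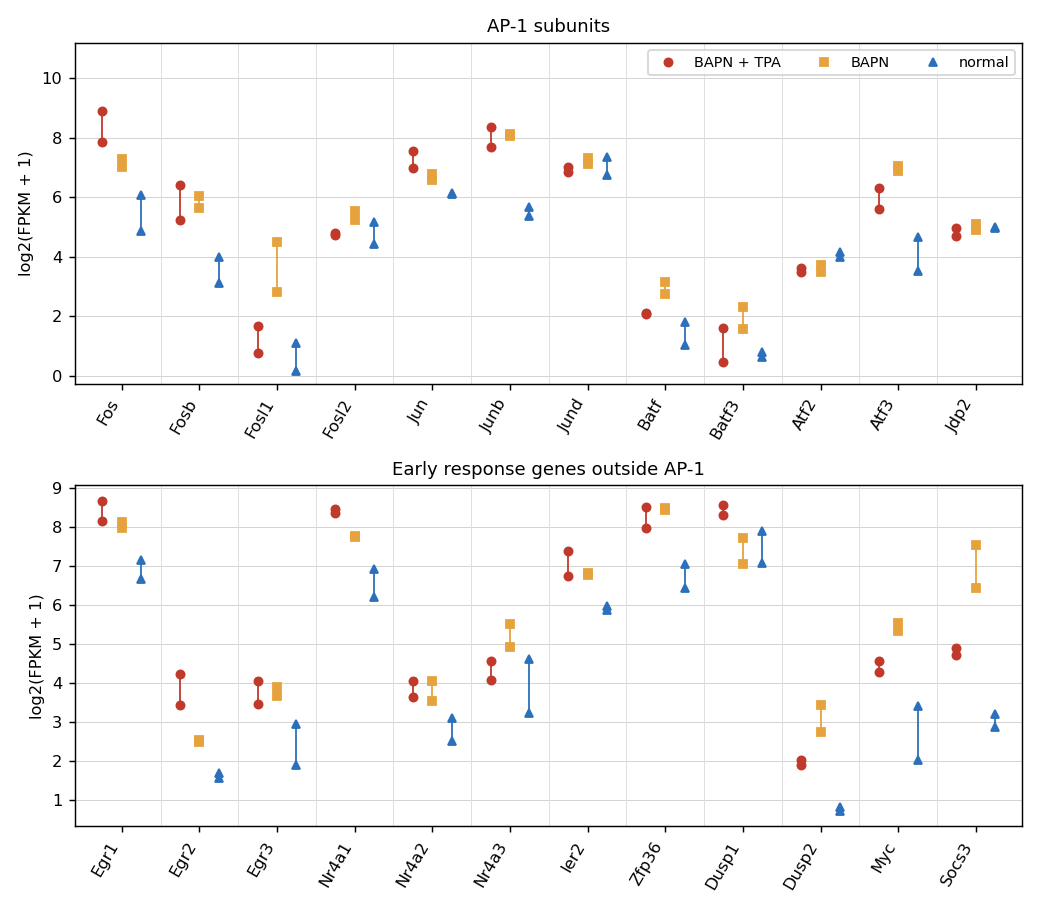
Values of single libraries in log2(FPKM + 1) for the 12 AP-1 subunits (top) and 12 early response genes outside AP-1 (bottom), with the 2 libraries of BAPN + TPA (circles), BAPN (squares) and normal (triangles) joined by a line. Fos and Nr4a1 are highest in BAPN + TPA, and Fosl1 and Socs3 are highest in BAPN.

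Most contractile smooth muscle genes lay below normal but above BAPN. Of 20 genes 0 passed against normal and 6 had an unadjusted p under 0.05, and both BAPN + TPA libraries lay below both normal libraries for 15 and above them for 1, Ldb3. The median difference from normal was -1.85, against -0.35 for all tested genes, and it stayed below 0 under every scaling (-3.29 to -1.47). The -3.29 came after rescaling to TPM, where all tested genes had a median of -1.61. Relative to BAPN, 18 of 20 lay above and 0 below, where 41.4% and 21.2% of all tested genes did so. The median was 1.48, against 0.18 for all tested genes. Acta2, smooth muscle actin, had 1078 and 1421 FPKM in BAPN + TPA, 745 and 246 FPKM in BAPN, and 3191 and 9310.4 FPKM in normal. Myh11, smooth muscle myosin heavy chain, had 185 and 269 FPKM in BAPN + TPA, 75.5 and 50.1 FPKM in BAPN, and 684 and 2005 FPKM in normal. Myocd, encoding myocardin, had 2.71 and 4.15 FPKM in BAPN + TPA, 1.09 and 0.39 FPKM in BAPN, and 9.42 and 41.8 FPKM in normal. In these 3 genes the groups did not overlap, and the 2 normal libraries differed more from each other than the 2 BAPN + TPA libraries did. Cnn1, encoding calponin, had 148 and 157 FPKM in BAPN + TPA, 84.4 and 31.0 FPKM in BAPN, and 497 and 1176 FPKM in normal. Its difference from normal was -2.32 ± 0.85 (SE, limma adjusted p = 0.425) and that from BAPN was 1.55 (limma adjusted p = 0.544). Des and Ldb3, which striated muscle also expresses, had 349 and 548 FPKM and 122 and 165 FPKM in BAPN + TPA, beside skeletal muscle markers averaging 7.77 and 8.61 (log2(FPKM + 1)) in BAPN + TPA, 6.68 and 6.39 in BAPN, and 6.27 and 1.45 in normal. The CArG box was searched only as CCWWWWWWGG, where W is A or T, in 1 window of 250 bases per gene. It was present in 2 of the 16 contractile promoters with a sequence, Myl9 and Ldb3, and in 1.24% of all 9923. Boxes with G or C in the core, or outside the window, would be missed, so the other promoters are not shown to lack one.

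Nearly all elastic fibre and collagen genes lay above BAPN, while their place relative to normal depended on the scaling. Of 19 tested elastic fibre and cross-linking genes, 6 lay above and 5 below normal in both BAPN + TPA libraries as deposited, and 9 above and 2 below after median-of-ratios scaling, while 0 passed and 1 had an unadjusted p under 0.05. Relative to BAPN 18 of 19 lay above, with a median of 1.33. Of all tested genes 41.4% lay above BAPN, with a median of 0.18, to be set beside both lists. Counts against BAPN are given as deposited only. For the collagens, 4 of 14 lay above and 7 below normal as deposited, and 5 above and 3 below after that scaling, 0 passed and 0 had an unadjusted p under 0.05, while 14 of 14 lay above BAPN, with a median of 1.31. Eln, encoding elastin, had 2148 and 1237 FPKM in BAPN + TPA, 453 and 114 FPKM in BAPN, and 424 and 1194 FPKM in normal. Lox, the lysyl oxidase that BAPN inhibits, had 126 and 72.1 FPKM in BAPN + TPA, 70.6 and 40.0 FPKM in BAPN, and 20.7 and 62.3 FPKM in normal (1.38 from normal, 95% interval -0.86 to 3.61). Col1a1 had 518 and 368 FPKM in BAPN + TPA, 166 and 114 FPKM in BAPN, and 153 and 165 FPKM in normal. These 3 genes were thus above the normal range in both BAPN + TPA libraries, but none passed. Col8a1, a short-chain collagen of the vessel wall, had 67.1 and 21.5 FPKM in BAPN + TPA, 12.5 and 3.22 FPKM in BAPN, and 5.74 and 3.47 FPKM in normal (2.84 from normal, 95% interval -0.12 to 5.79). In the other direction, Col18a1, whose product is a basement membrane proteoglycan, had 53.2 and 72.7 FPKM in BAPN + TPA, 48.7 and 13.6 FPKM in BAPN, and 186 and 611 FPKM in normal. The fibroblast markers averaged 7.66 and 7.35 (log2(FPKM + 1)) in BAPN + TPA, 6.43 and 5.90 in BAPN, and 7.28 and 6.33 in normal. The collagen list averaged 6.65 and 6.33 in BAPN + TPA, 5.61 and 4.71 in BAPN, and 6.33 and 6.78 in normal. Col1a1 and Col3a1 are on both lists, so the 2 sets of means are not independent. The part of fibroblasts in these values was not tested.

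More matrix proteases and inhibitors lay above normal than below it. Both BAPN + TPA libraries lay above both normal libraries for 11 of 23 tested genes and below them for 7 as deposited, and for 15 and 3 after median-of-ratios scaling, with 0 passing and 7 at an unadjusted p under 0.05. Timp1, a metalloproteinase inhibitor, had 78.1 and 109 FPKM in BAPN + TPA, 221 and 54.2 FPKM in BAPN, and 11.7 and 14.2 FPKM in normal (2.75, 95% interval 0.70 to 4.79). Timp3, the inhibitor bound to matrix, had 235 and 185 FPKM in BAPN + TPA, 113 and 93.6 FPKM in BAPN, and 444 and 525 FPKM in normal. The BAPN + TPA libraries lay within the BAPN libraries for Timp1 and between the other groups for Timp3. Mmp2, a gelatinase, had 90.4 and 59.8 FPKM in BAPN + TPA, 42.0 and 27.8 FPKM in BAPN, and 45.7 and 16.0 FPKM in normal.

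**Figure D4:**
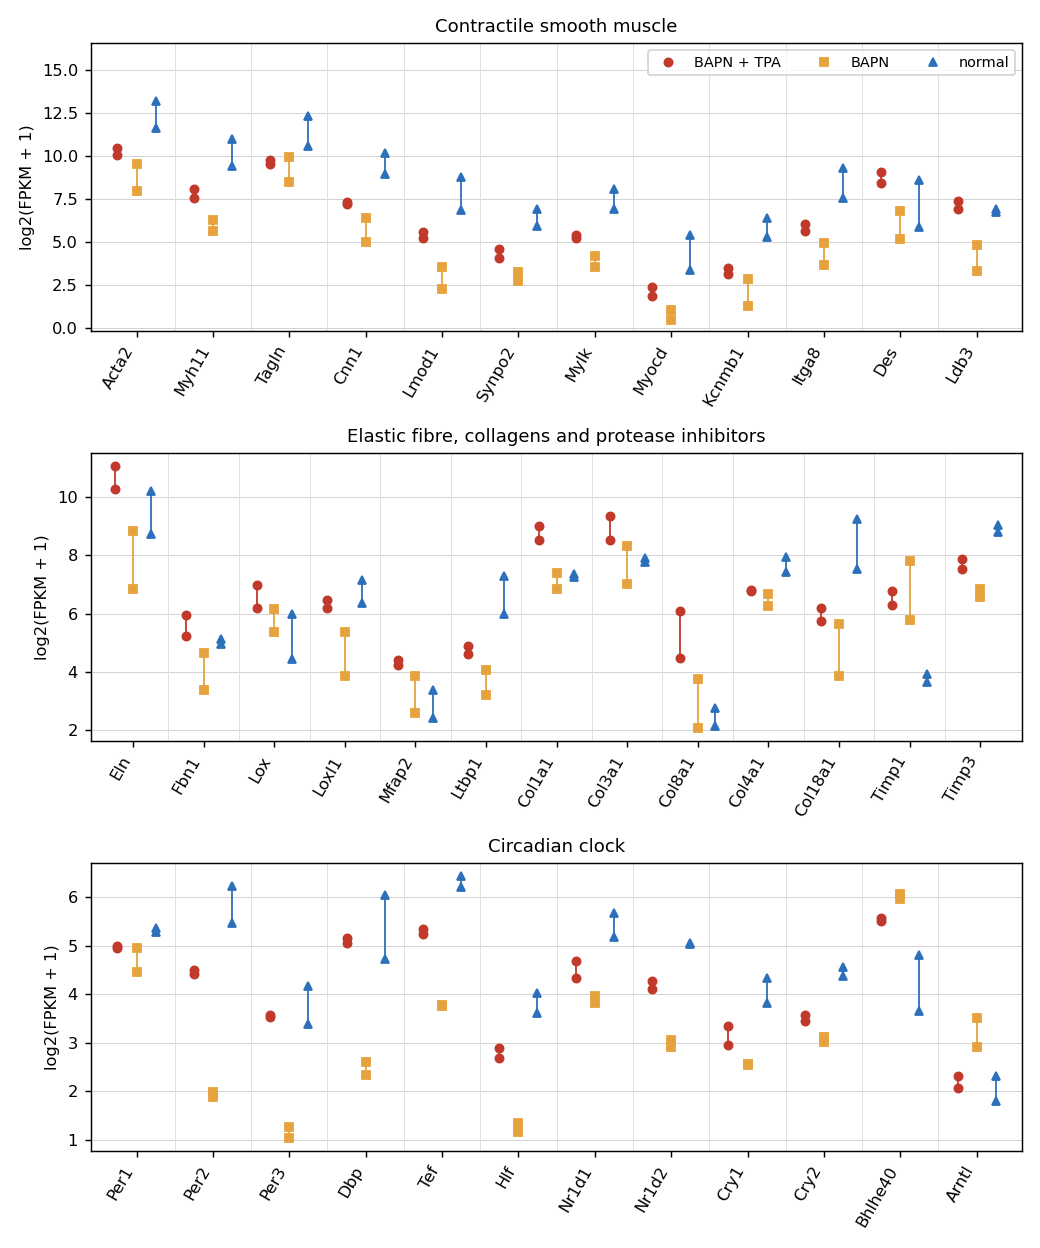
Values of single libraries in log2(FPKM + 1) for contractile genes (top), elastic fibre, collagen and protease inhibitor genes (middle) and clock genes (bottom), with the 2 libraries of BAPN + TPA (circles), BAPN (squares) and normal (triangles) joined by a line. BAPN + TPA lies between BAPN and normal for Acta2, Myh11, Per2 and Tef, and above BAPN for Eln and Col1a1.

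Several clock genes lay between BAPN and normal. The circadian clock is a feedback loop in which Clock and Arntl activate the Per and Cry genes and output factors such as Dbp and Tef. Of 17 genes 0 passed and 9 had an unadjusted p under 0.05. In both BAPN + TPA libraries 11 lay below normal and 1, Bhlhe40, above, where 51.1% and 9.03% of all tested genes did so. After median-of-ratios scaling 9 lay below and 3 above, where the shares were 23.2% and 22.4%. The median difference was -0.86, against -0.35 for all tested genes (-2.06 to -0.50 over the scalings). The -2.06 came after rescaling to TPM, where all tested genes had a median of -1.61. Per2 had 21.6 and 20.5 FPKM in BAPN + TPA, 2.96 and 2.68 FPKM in BAPN, and 43.4 and 74.6 FPKM in normal. Tef had 39.6 and 37.0 FPKM in BAPN + TPA, 12.5 and 12.8 FPKM in BAPN, and 73.8 and 85.9 FPKM in normal (-1.04 ± 0.28 from normal, SE, limma adjusted p = 0.425). Dbp had 32.4 and 35.0 FPKM in BAPN + TPA, 5.12 and 4.02 FPKM in BAPN, and 65.3 and 25.7 FPKM in normal. For Per2 and Tef each group was apart from both others, while for Dbp the normal libraries spanned the BAPN + TPA ones. The sources used here do not state the hour at which each aorta was taken.

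Tmem254c was the single gene that fell. It (chr14:26063751-26067425) had 1.09 and 0.31 FPKM in BAPN + TPA, 0 in BAPN, and 42.8 and 45.3 FPKM in normal (-4.77 ± 0.37 from normal, SE, limma adjusted p = 0.0224). Tmem254c is 1 of 3 near-identical copies, between which the authors' counting could divide reads, and its value is therefore uncertain. Tmem254b ran the other way, at 9.78 and 7.79 FPKM in BAPN + TPA, 20.3 and 7.28 FPKM in BAPN, and 0 and 0.95 FPKM in normal. The sum of the 3 copies was 10.97 and 8.82 FPKM in BAPN + TPA, 20.3 and 7.28 FPKM in BAPN, and 45.2 and 47.5 FPKM in normal. Summed, the BAPN + TPA libraries still lay below normal, by less than Tmem254c alone. With each library left out in turn the difference of Tmem254c ranged from -5.10 to -4.43 and its limma adjusted p from 0.0127 to 0.421, and it passed only without either BAPN + T-5224 library.

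Among the 50 genes of smallest p-value that missed the test, some that lay below normal had close values in BAPN + TPA and BAPN. Larger differences below normal occurred among genes outside these 50. Id1, a target of bone morphogenetic protein signalling, had 61.6 and 43.1 FPKM in BAPN + TPA, 46.9 and 28.3 FPKM in BAPN, and 237 and 391 FPKM in normal (-2.54, limma adjusted p = 0.336). Hspa4l, a chaperone of the Hsp70 superfamily, had 6.51 and 5.96 FPKM in BAPN + TPA, 5.83 and 5.06 FPKM in BAPN, and 20.9 and 15.7 FPKM in normal. The guidance receptor Plxna2 had 3.32 and 3.01 FPKM in BAPN + TPA, 3.22 and 2.84 FPKM in BAPN, and 9.88 and 11.3 FPKM in normal. For these 3 genes all libraries of both treated groups lay below both normal libraries. Smad6, an inhibitor of bone morphogenetic protein signalling, had 10.1 and 7.22 FPKM in BAPN + TPA, 8.06 and 4.37 FPKM in BAPN, and 28.0 and 73.4 FPKM in normal. On the TGF-β and BMP list of 16 tested genes, 0 passed and 3 had an unadjusted p under 0.05. As deposited 10 lay below normal and 2 above, where 51.1% and 9.03% of all tested genes did so. After median-of-ratios scaling 8 lay below and 2 above, where the shares were 23.2% and 22.4%. The median was -1.22, against -0.35 for all tested genes, and ranged from -2.60 to -0.86 over the scalings. The -2.60 came after rescaling to TPM, where all tested genes had a median of -1.61.

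**Figure D5:**
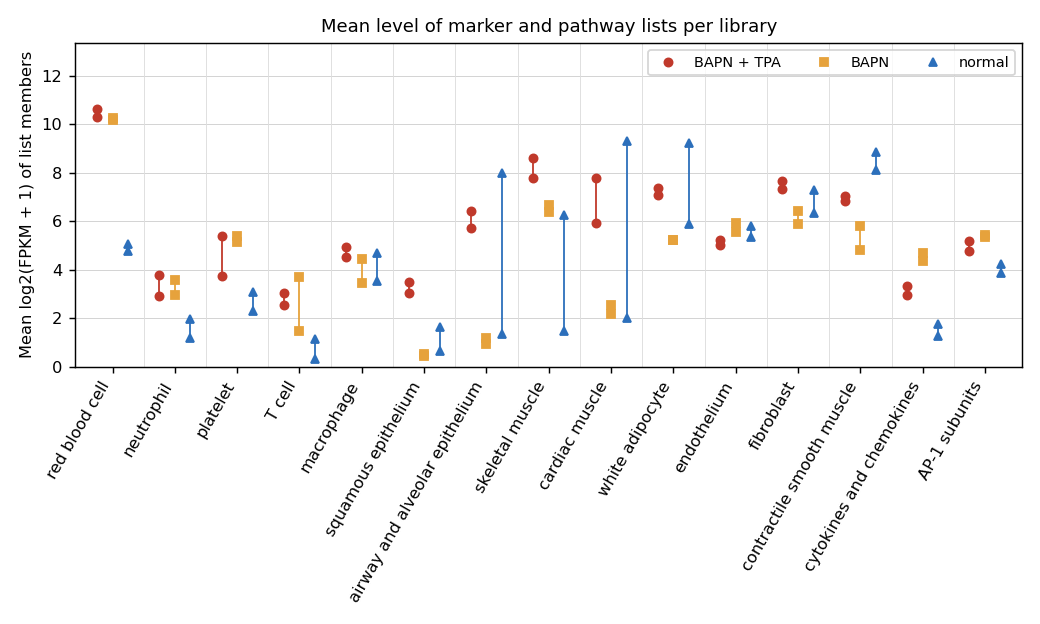
Mean log2(FPKM + 1) of the members of 15 marker and pathway lists in each library, with the 2 libraries of BAPN + TPA (circles), BAPN (squares) and normal (triangles) joined by a line. Red blood cell genes average 10.31 to 10.63 in BAPN + TPA and 4.79 to 5.06 in normal. The airway and alveolar, cardiac and adipocyte lists separate the 2 normal libraries from each other.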

How the data were processed

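RNA of 9 mouse aortas or aorta pools was sequenced after Trizol extraction and TruSeq library preparation, per the labels' protocols. The authors deposited FPKM per gene symbol for each library, with mm10 named in the submitters' processing notes, while no source used here names the aligner, counter or annotation. Unlisted genes were set to 0. Together the tables held 17179 symbols, of which 16458 (95.8%) matched RefSeq GRCm38.p6, the source of coordinates and promoters. FPKM carry no counts, so depth is unknown and no counting interval could be given. The spacing of low values put the libraries other than BAPN + T-5224 replicate 2 at about 0.841 to 1.15 times the depth of BAPN replicate 2. These ratios are rough. In each library set against that reference, the most frequent ratio rested on 38 to 56 of 1078 to 1487 genes, and the next on 23 to 36.

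Tests covered the 12997 genes averaging 1 FPKM or more across the 9 libraries, on log2(FPKM + 1), a scale that understates changes of low genes, with limma 3.58.1 in R 4.3.3, using 5 groups, all 9 libraries and an intensity trend. P-values were two-sided with Benjamini-Hochberg adjustment and calls below 0.05. They reflect spread between samples, which may be technical, and the single coQ10 library, labelled co110, was assumed to vary like the others. Nothing beyond the replicate numbers says that libraries came from separate mice. The script was tested on simulated data. Named genes were those that passed, the 8 largest differences in each direction among the 50 smallest p that missed, up to 4 members of each of 23 gene lists and 19 marker lists, all AP-1 subunits and Lox, of which the text gives a selection, and further list members chosen after their values were seen. One gene that the rule takes is not reported here. The members and lists were chosen with earlier results of these data known. Tables and figures used python 3.11.15, pandas 2.3.3, numpy 2.4.6 and matplotlib 3.10.9. Alternatives covered offset, filter, scaling, samples, trend, a replicate block and each library left out.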

Additional observations from a re-analysis of the deposited data

How the results depend on the processing

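Counts are given as rising and falling against normal, then rising and falling against BAPN, beside 5, 1, 3 and 2 as reported. They were 0, 0, 702 and 270 with only the 4 libraries of a contrast, 5, 0, 0 and 0 with an offset of 0.1, 9, 1, 8 and 1 with no filter, and 0, 0, 0 and 0 with a mean of at least 5 FPKM. Rescaling to TPM gave 54, 8687, 2 and 0, leaving haemoglobin out of the sum 5, 1, 3 and 0, quantile normalization 19, 1, 6 and 7, and no trend 11, 1, 4 and 2. TPM sums are held by haemoglobin, and the TPM median of all tested genes was -1.61. Leaving out 1 library at a time gave 0 to 24, 0 to 1, 0 to 8 and 0 to 1. With normal replicate 1 and BAPN + T-5224 replicate 2 both left out, a choice made after seeing the data, the counts were 731, 800, 744 and 279. At an unadjusted p under 0.05 the fits with no call in either direction had 371 to 3122 genes against normal and 409 to 1269 against BAPN. The replicate block gave 2, 0, 2 and 0, with 1086 and 1100 genes at an unadjusted p under 0.05. Deviations of same-numbered libraries correlated between -0.44 and 0.18 over 6 pairs of groups, so the numbers were not taken to pair samples. No named gene changed direction while called. With 2 libraries per group, unknown depth and tissue that differs between normal libraries, a missed call does not show equal expression.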

Other observations

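Heat shock genes had a median difference from normal of -0.55 over 17 genes, and 12 lay below and 3 above normal in both BAPN + TPA libraries as deposited but 4 below and 4 above after median-of-ratios scaling, with 0 passing limma and 2 at an unadjusted p under 0.05. Hspa1b, an inducible HSP70, had 211 and 194 FPKM in BAPN + TPA, 21.5 and 17.1 FPKM in BAPN, and 56.2 and 186 FPKM in normal. Hsp90aa1 had 86.0 and 87.3 FPKM in BAPN + TPA, 101 and 140 FPKM in BAPN, and 197 and 235 FPKM in normal. Hspa1b thus lay above BAPN, and Hsp90aa1 below both other groups. For the unfolded protein response 13 of 16 genes lay below normal and 0 above as deposited, and 9 below and 1 above after that scaling, with a median of -0.62, 0 passing limma and 1 at an unadjusted p under 0.05. The scaled medians of the 2 lists were -0.17 and -0.24. All tested genes had a median of -0.35 as deposited and -0.01 scaled. Of them 51.1% lay below and 9.03% above normal as deposited, and 23.2% and 22.4% after scaling. The scaled heat shock counts were near these shares. None of 22 nuclear oxidative phosphorylation genes was apart from normal, but the 2 normal libraries differed widely. The list averaged 7.37 and 7.40 (log2(FPKM + 1)) in BAPN + TPA and 8.23 and 6.61 in normal, so equal expression is not shown. Cox7a1, a subunit of muscle cytochrome oxidase, had 137 and 151 FPKM in BAPN + TPA, 22.0 and 27.4 FPKM in BAPN, and 269 and 15.6 FPKM in normal.

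Sympathetic neuron genes differed between the BAPN + TPA libraries. Dbh, which makes noradrenaline, had 3.03 and 107.6 FPKM in BAPN + TPA, 275 and 270 FPKM in BAPN, and 3.78 and 0.20 FPKM in normal. The list averaged 2.43 and 5.09 (log2(FPKM + 1)) in BAPN + TPA, 6.61 and 7.07 in BAPN, and 3.10 and 0.55 in normal. Hmox1, the haem-degrading enzyme, had 99.7 and 223 FPKM in BAPN + TPA, 801 and 206 FPKM in BAPN, and 28.5 and 14.6 FPKM in normal, beside the haemoglobin shares given above. Cell cycle genes lay above normal in 10 of 17, or 15 of 17 after median-of-ratios scaling, and below BAPN in 9 of 17, with 0 passing limma and 0 at an unadjusted p under 0.05. Of all tested genes 9.03% lay above normal as deposited, 22.4% above it after that scaling, and 21.2% below BAPN. Birc5, encoding survivin of dividing cells, had 5.24 and 5.23 FPKM in BAPN + TPA, 13.1 and 18.6 FPKM in BAPN, and 3.68 and 0.71 FPKM in normal.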
